A study of Rattus norvegicus with 6 samples.

Results

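Genes used as markers of fat cells were read in RNA from rat bone. The aim was to describe how far their levels varied between libraries and whether they differed after exercise. The genes were Adipoq, Lpl, Pparg, Cebpa and Scd, 5 of the 32883 genes in the deposited table. They were picked by Ensembl identifier (ENSRNOG00000001821, ENSRNOG00000012181, ENSRNOG00000008839, ENSRNOG00000010918 and ENSRNOG00000013552, in that order). The symbols came with that choice of identifiers. Neither the deposited table nor the rat reference table used here pairs identifiers with symbols, so the pairing was not checked against an annotation, and every gene role given here rests on it.

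The libraries came from bone of 6 wild-type rats (Rattus norvegicus), 3 labelled as exercised and 3 as untreated controls, and the series title names moderate-intensity treadmill running in adult animals. The labels call the cell type osteocyte, the cell buried in mineralised bone matrix, and the molecule total RNA. The bone site, the removal of marrow, the sex, the age in weeks and the duration of running are not stated in the labels. The osteocyte label was not checked, because markers of osteocytes and of other cell types could not be matched to identifiers.

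Adipocytes are a normal part of bone marrow. They arise from the same stromal progenitors as osteoblasts, store triglyceride, and secrete adiponectin into the blood, and marrow fat is known to shrink in rodents that run. Pparg and Cebpa encode the transcription factors that switch on each other and the fat cell programme, and Adipoq, Lpl and Scd are among the genes they activate. Adipoq is used here as a marker of adipocytes, and the cells that hold its mRNA in these bone samples were not tested. Lpl is also made in muscle and macrophages, Cebpa in myeloid precursors, and Scd in other lipid-making cells.

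Libraries held 14056743 to 18126584 counts, and all 5 genes were well covered, with 111 counts (Pparg in control replicate 3) to 52651 counts (Scd in exercised replicate 2). Levels are given as CPM (counts relative to library size, with TMM factors), which do not account for gene length, so levels are compared between libraries and not between genes. Intervals are exact 95% Poisson intervals, which cover counting error only. Control replicate 3 and exercised replicate 3 stand at the ends of the first principal component of all tested genes (scores -126 and 117), while the other 4 libraries score between -41.5 and 52.7. In bulk RNA, fewer adipocytes, less RNA per adipocyte and RNA from other cells that make these transcripts cannot be told apart.

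Adiponectin mRNA varied widely between libraries and did not separate exercised from control bone. Adipoq, which encodes this hormone, measured 571 CPM in control replicate 1, 157 CPM in control replicate 2 and 68.9 CPM in control replicate 3. Exercised replicates 1, 2 and 3 measured 274, 322 and 77.3 CPM. The highest and the lowest library were both controls, and the values of exercised bone lay between them. The highest level was 8.28 times the lowest (interval for counting error 7.75 to 8.85). Neighbours in the order of libraries all differed beyond counting error, by the least between exercised replicate 3 and control replicate 3 (ratio 1.12, 1.03 to 1.22).

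Pparg, the nuclear receptor that drives fat cell formation, followed the same order of libraries as Adipoq. Its level in control replicates 1, 2 and 3 was 38.9, 19.4 and 7.71 CPM. The exercised rats, in the order of their numbers, had 23.2, 26.7 and 12.6 CPM. Control replicate 1 was again highest and control replicate 3 lowest, with a ratio of 5.05 (4.11 to 6.24). Pparg had the lowest counts of the 5 genes, and exercised replicates 2 and 1 did not differ beyond counting error (ratio 1.15, 0.992 to 1.34).

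**Figure D1:**
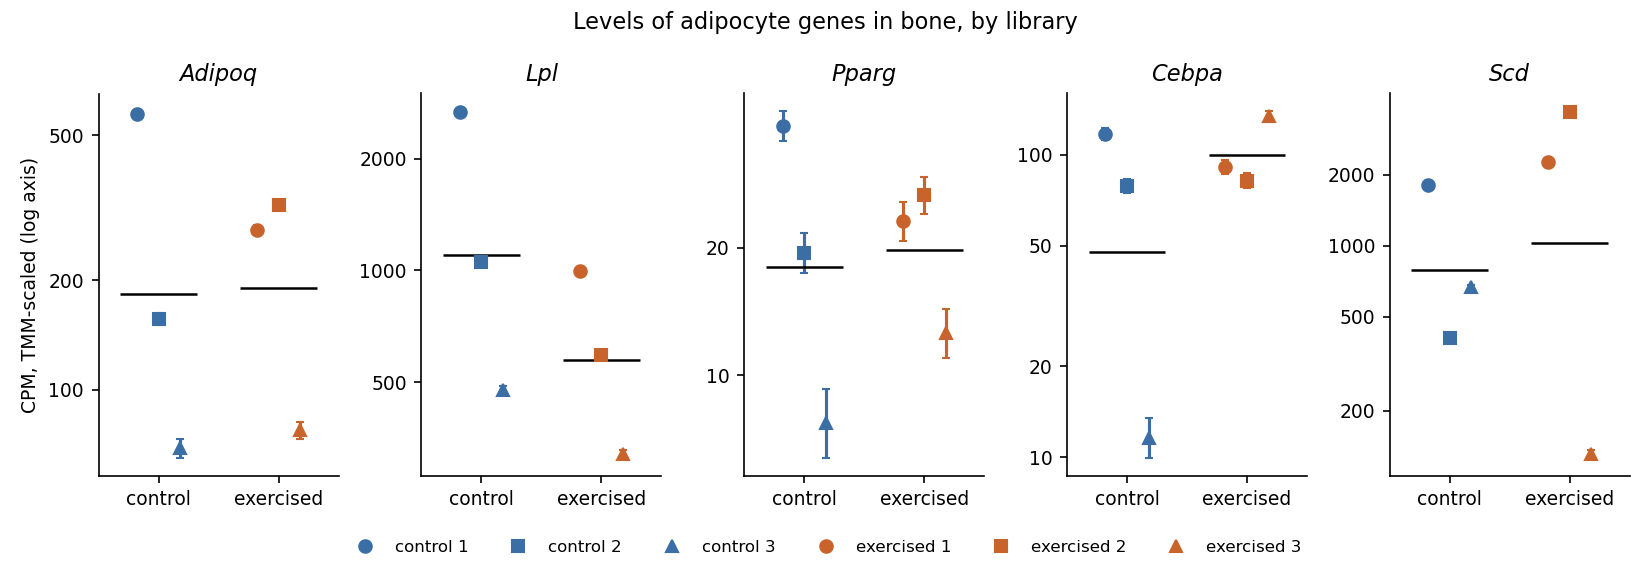
Levels of the 5 genes in CPM on log axes, with 1 point per library, bars for exact 95% Poisson intervals and a black line at the mean of log2 CPM of each group (n = 3). The groups overlap in every panel, Cebpa is low in control replicate 3 (11.6 CPM) and Scd is low in exercised replicate 3 (131 CPM).

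The sequence around the starts of Adipoq and Pparg, as annotated by RefSeq on GRCr8, is shown as a description. It runs from 250 bases before to 50 bases from the start, read 5′ to 3′ on the gene's strand. A link between these windows and the levels was not tested. Pparg has 2 annotated starts, which the counts per gene do not separate. Capitals mark CCAAT, the core of the CCAAT box, on either strand (ATTGG on the other).
Adipoq, chr11:91240120-91240419, minus strand: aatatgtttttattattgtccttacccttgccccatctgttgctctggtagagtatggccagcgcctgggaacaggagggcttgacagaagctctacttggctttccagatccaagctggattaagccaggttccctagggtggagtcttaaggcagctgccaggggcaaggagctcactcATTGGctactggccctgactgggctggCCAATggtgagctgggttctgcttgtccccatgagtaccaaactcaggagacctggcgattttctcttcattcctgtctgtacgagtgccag
Pparg, first start, chr4:150096808-150097107, plus strand: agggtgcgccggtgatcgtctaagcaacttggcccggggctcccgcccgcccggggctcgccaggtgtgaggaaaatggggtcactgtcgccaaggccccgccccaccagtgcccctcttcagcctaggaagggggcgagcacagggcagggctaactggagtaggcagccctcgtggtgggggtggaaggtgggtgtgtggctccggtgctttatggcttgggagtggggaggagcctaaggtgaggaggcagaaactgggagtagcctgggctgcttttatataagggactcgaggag
Pparg, second start, chr4:150154522-150154821, plus strand: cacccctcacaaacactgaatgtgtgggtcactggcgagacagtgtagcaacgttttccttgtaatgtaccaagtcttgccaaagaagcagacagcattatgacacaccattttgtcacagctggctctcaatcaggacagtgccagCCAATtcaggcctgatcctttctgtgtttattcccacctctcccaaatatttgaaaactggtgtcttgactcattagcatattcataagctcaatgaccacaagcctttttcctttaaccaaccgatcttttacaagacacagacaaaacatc

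The Adipoq window held a forward CCAAT that begins 42 bases upstream of the start. It also held a reverse one, whose ATTGG on the gene's strand begins 69 bases upstream. The second Pparg window held 1, which begins 103 bases upstream, and the first held none. CCAAT is frequent: 12549 of the 33469 RefSeq windows of this length (37.5%) hold it on at least 1 strand. A C/EBP palindrome (TTGCGCAA, the same on both strands) and a direct repeat of the kind bound by PPARG with RXR (AGGTCA, any 1 base, AGGTCA, on both strands) were also searched for. Neither holds CCAAT, and 0 of the 5 windows of Adipoq, Pparg, Cebpa and Scd held either, against 0.17% and 0.0538% of all windows. These letter matches describe the windows alone, and no binding was measured. Lpl had no entry among the windows.

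Lpl, the lipase that frees fatty acids from blood lipoproteins for uptake, had its highest level in the same control as Adipoq. Control replicates 1, 2 and 3 measured 2666, 1054 and 478 CPM. Exercised replicates 1, 2 and 3 measured 999, 593 and 319.8 CPM. The groups overlapped, since control replicate 3 lay below exercised replicates 1 and 2. The lowest Lpl value was that of exercised replicate 3, and the highest was 8.34 times as large (8.11 to 8.57).

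Cebpa, the transcription factor that acts with Pparg in fat cells and is also needed for granulocytes, was nearly even in all libraries but 1. Control replicates 1 and 2 measured 117 and 78.8 CPM, and exercised replicates 1, 2 and 3 measured 91.2, 82.0 and 134 CPM. Control replicate 3 measured 11.6 CPM (9.91 to 13.5). The whole range was 11.5-fold (9.86 to 13.6), and 1.70-fold without control replicate 3. Exercised replicate 3, which was low in Adipoq, Lpl and Pparg, had the highest Cebpa level of the 6 libraries.

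Scd, the desaturase that makes monounsaturated fatty acids such as oleate, had the widest range of the 5 genes over all 6 libraries. Exercised replicates 1 and 2 held 2264 and 3694 CPM, its highest levels, and exercised replicate 3 held 131 CPM, the lowest. The range within the exercised group was therefore 28.3-fold (27.1 to 29.5). Control replicates 1, 2 and 3 lay inside that range, at 1813, 405 and 669 CPM. Without exercised replicate 3 the range over the remaining libraries was 9.11-fold, below the 10.1-fold range of Cebpa in the same 5 libraries.

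The spread of these genes was larger than that of most genes in the same libraries. Over the 11139 genes whose mean reached 5 CPM, the median SD of log2 CPM over the 6 libraries was 0.45. Scd had an SD of 1.80, and 4.40% of those genes had a larger one. Cebpa had an SD of 1.29, Adipoq 1.21 and Lpl 1.07, with 8.96%, 10.2% and 12.8% of genes above them. Pparg had the smallest SD of the 5, 0.83, with 22.4% above it. The ranks and the median SD used log2 CPM with a prior count of 2, and the SDs printed for the 5 genes used none. These ranks are a description of the 6 libraries.

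**Figure D2:**
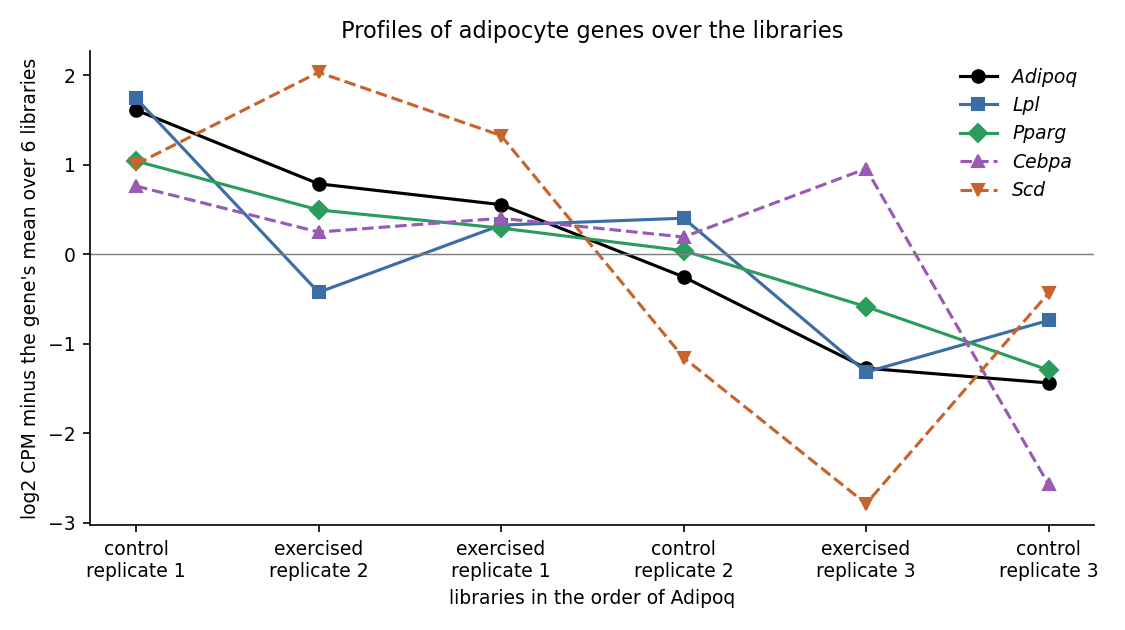
Log2 CPM of each gene minus its own mean over the 6 libraries, with the libraries in the order of Adipoq from highest to lowest. Pparg falls in step with Adipoq, whereas Cebpa rises in exercised replicate 3 and drops in control replicate 3, and Scd drops in exercised replicate 3.

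Comparing exercised with control rats asks whether running altered expression in bone, and none of the 5 adipocyte genes passed the threshold. With edgeR (quasi-likelihood, Benjamini-Hochberg adjusted over 14495 genes), 0 of 5 had an adjusted p under 0.05, against a background of 0 genes (0%) in the whole table. At an unadjusted p under 0.05 the count was 0 of 5 by edgeR, against a background of 1.7%. It was also 0 of 5 by DESeq2 and by limma voom, both adjusted and unadjusted. The background by DESeq2 was 1 gene adjusted and 552 of 20681 genes unadjusted. The 20681 are the genes with a p-value, and the number that entered the DESeq2 adjustment is not given. By limma voom it was 0 of 14495 genes adjusted and 279 unadjusted. The groups overlapped in all 5 genes (0 of 5 without overlap), beside 7.37% of all tested genes in which they did not.

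Lpl had the lowest exercised level relative to control. The mean was 1399 ± 1134 CPM over the 3 controls and 637 ± 342 CPM over the 3 exercised rats (± SD). The log2 fold difference by edgeR was -1.13 (SE 0.76, 95% interval -2.96 to 0.69, adjusted p = 0.889). Without control replicate 1, which had the highest Lpl value, it was -0.26. Over all libraries, the test did not tell the difference from the spread between libraries. Its interval holds larger drops as well as no difference.

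Scd differed in the other direction, with 962 ± 748 CPM over the 3 controls and 2030 ± 1793 CPM over the 3 exercised rats (± SD). Its log2 fold difference was 1.08 (SE 1.14, 95% interval -1.67 to 3.82, adjusted p = 0.889 by edgeR). Without exercised replicate 2 the difference was 0.29, and without control replicate 1 it was 1.92. The interval spans folds from 0.314 to 14.1, the widest of the 5 genes.

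Cebpa averaged 69.1 ± 53.4 CPM over the 3 controls and 102 ± 27.7 CPM over the 3 exercised rats (± SD). The log2 fold difference was 0.57 (SE 0.74, 95% interval -1.22 to 2.35, adjusted p = 0.895 by edgeR). Without control replicate 3 it was 0.062, and without both replicates numbered 3 it was -0.18. The value with all libraries thus rested on the 1 control in which Cebpa was low.

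Adipoq and Pparg showed the smallest differences between the groups. Adipoq averaged 265 ± 268 CPM in controls and 225 ± 130 CPM in exercised rats (SD, n = 3 each), which edgeR fitted as a log2 fold difference of -0.24 (SE 0.87, 95% interval -2.32 to 1.84, adjusted p = 0.96 by edgeR). Pparg averaged 22.0 ± 15.8 CPM in controls and 20.8 ± 7.32 CPM in exercised rats, fitted as a log2 fold difference of -0.083 (SE 0.60, 95% interval -1.52 to 1.35, adjusted p = 0.982 by edgeR). The direction of both turned when control replicate 1 was left out (0.99 for Adipoq and 0.61 for Pparg) and when exercised replicate 3 was left out (0.17 and 0.18). It also turned on the scale of mean log2 CPM, where exercised minus control was 0.049 for Adipoq and 0.14 for Pparg.

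Over the 5 genes, 2 had a higher and 3 a lower fitted level in exercised bone, with a median log2 fold difference of -0.083, beside 0.0092 over all genes tested. Two-sided exact permutation tests of mean log2 CPM gave p = 1 for Adipoq, 0.4 for Lpl, 0.9 for Pparg, 0.4 for Cebpa and 0.8 for Scd, where 3 against 3 allows no p below 0.1. The difference between the groups took 0.0498% of the variance of log2 CPM for Adipoq, 0.835% for Pparg and 1.37% for Scd. It took 20.7% for Cebpa and 23.0% for Lpl. The standard errors of the 5 genes, 0.60 to 1.14, were larger than the median of 0.42 over all tested genes, and the narrowest interval, that of Pparg, ran from a fold of 0.349 to one of 2.56.

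**Figure D3:**
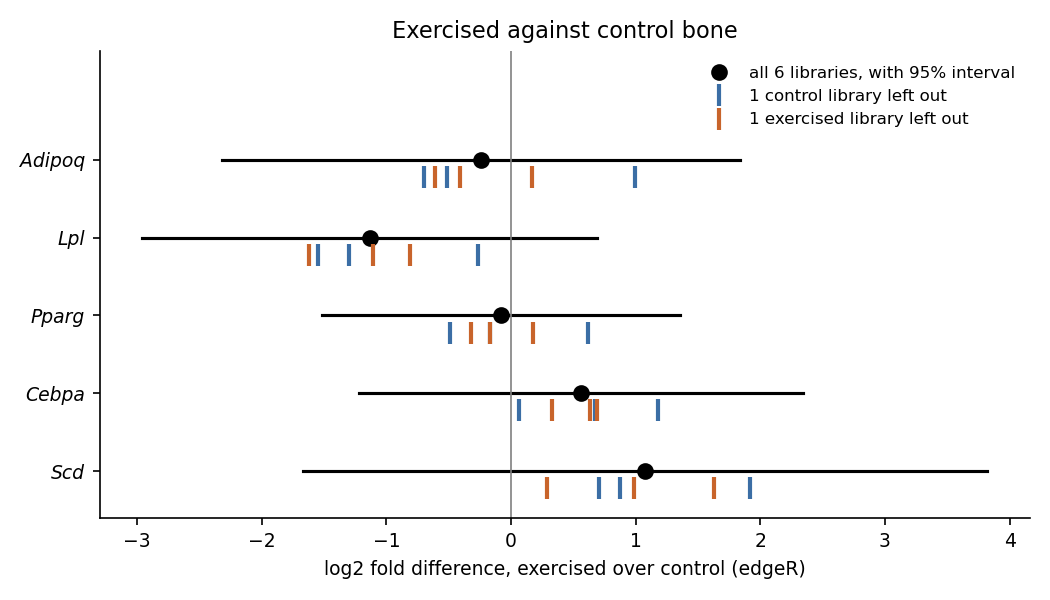
Log2 fold difference of exercised over control bone by edgeR for each gene, with its 95% interval (black), and the values with 1 library left out (ticks, coloured by the group of the library left out). Every interval includes 0, and the ticks of Adipoq and Pparg lie on both sides of it, from -0.70 to 0.99 and from -0.49 to 0.61.

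The genes did not vary as 1 block between libraries. Adipoq and Pparg, a hormone gene and the nuclear receptor known to activate it, varied together. Lpl and Scd had lower correlations with Adipoq, and that of Cebpa with Scd was near 0. Pearson's r of log2 CPM over the 6 libraries between Adipoq and Pparg was 0.97 (exact permutation p = 0.00139, adjusted over 10 pairs 0.0139). Spearman's rho was 1 (exact permutation p = 0.00278, adjusted 0.0278). Without the libraries farthest from the median of Adipoq, control replicates 1 and 3, r was 0.99 over the remaining 4. This was the only one of the 10 pairs past an adjusted p of 0.05.

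Adipoq and Lpl gave r = 0.82 and rho = 0.71 (exact permutation p = 0.0417 and 0.136, adjusted 0.201 and 0.35), and r fell to 0.61 without control replicates 1 and 3. Adipoq and Scd gave r = 0.78 and rho = 0.66 (exact permutation p = 0.0806 and 0.175, adjusted 0.201 and 0.35), and r was 0.99 without the same libraries. Lpl and Pparg gave r = 0.77 and rho = 0.71 (exact permutation p = 0.0639 and 0.136, adjusted 0.201 and 0.35), and r was 0.59 without control replicate 1 and exercised replicate 3. These pairs did not pass the adjustment over 10 pairs.

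Cebpa had no relation to the other genes that passed. Its r was 0.71 with Pparg (rho 0.37, exact permutation p = 0.131 and 0.497, adjusted 0.261 and 0.705) and 0.52 with Adipoq (rho 0.37, exact permutation p = 0.326 and 0.497, adjusted 0.408 and 0.705). Both values rested on control replicates 1 and 3, without which r was -0.86 and -0.78 over 4 libraries. Cebpa and Scd gave r = 0.0027 (rho -0.14, exact permutation p = 0.999 and 0.803, adjusted 0.999 and 0.892), and r was 0.28 without both replicates numbered 3. The other pairs, Lpl with Cebpa, Lpl with Scd and Pparg with Scd, had r of 0.30, 0.50 and 0.62 and rho of -0.029, 0.31 and 0.66. Their exact permutation p for r was 0.517, 0.31 and 0.201 (adjusted 0.574, 0.408 and 0.336), and for rho 1, 0.564 and 0.175 (adjusted 1, 0.705 and 0.35). Without the farthest libraries their r was 0.75, -0.15 and 0.96.

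**Figure D4:**
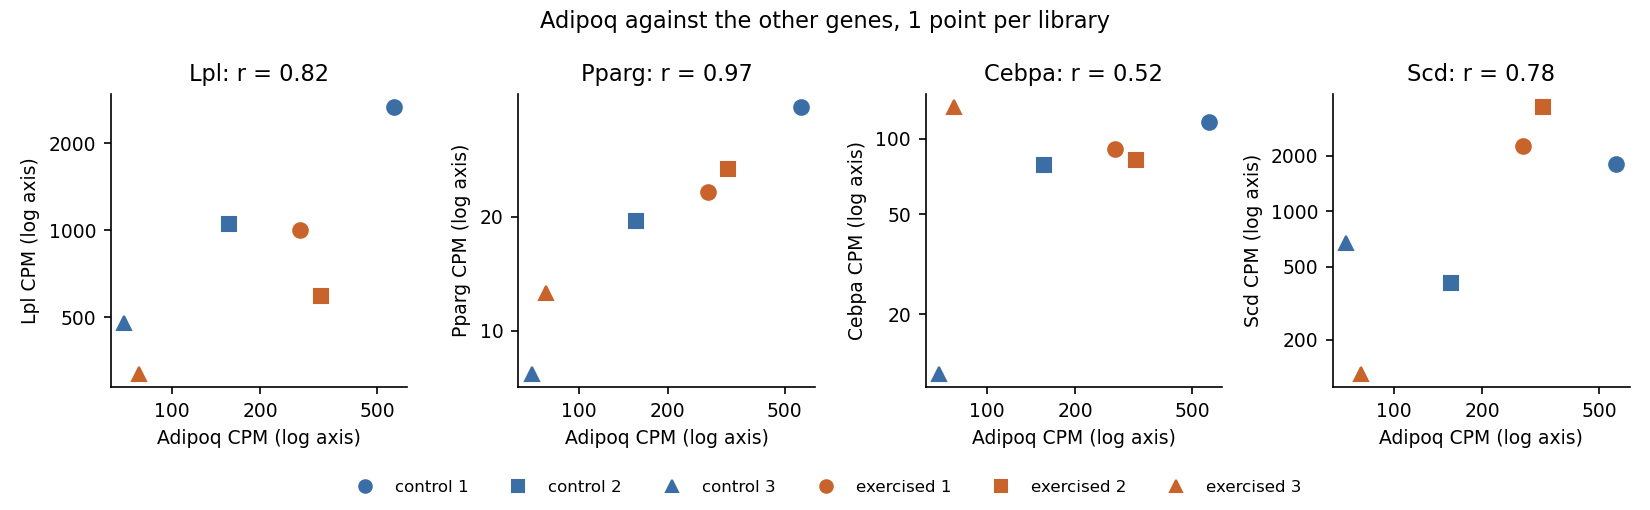
CPM of Lpl, Pparg, Cebpa and Scd against CPM of Adipoq on log axes, with 1 point per library and Pearson's r of log2 CPM over 6 libraries above each panel. The points of Pparg lie along a line, while Cebpa is at its highest in exercised replicate 3, 1 of the 2 libraries lowest in Adipoq.

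Likeness to Adipoq was also measured across the table, as the root-mean-square distance of centred log2 CPM over the 6 libraries among the genes whose mean reached 5 CPM. Pparg stood at rank 31 of 11138 genes (distance 0.42) and Lpl at rank 88 (0.64). Scd stood at rank 2651 (1.05) and Cebpa at rank 4129 (1.11). Seen from Scd, Adipoq was at rank 88 and Cebpa at rank 9340.

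The closest gene to Adipoq was ENSRNOG00000000158, at a distance of 0.10, and the next was ENSRNOG00000058006, at 0.12. Neither identifier has a symbol here. ENSRNOG00000000158 had 347, 83.3 and 39.6 CPM in the controls, in the order of their numbers, and 171, 215 and 47.3 CPM in the exercised libraries. ENSRNOG00000058006 measured 131, 38.6 and 19.9 CPM in the controls and 66.3, 74.5 and 20.4 CPM in the exercised libraries. Both kept the order of Adipoq over all 6 libraries, and neither passed the threshold between the groups (log2 fold differences of -0.12 with SE 0.89 and -0.23 with SE 0.78, adjusted p = 0.982 and 0.958 by edgeR). They were picked for likeness to Adipoq over these libraries, so the shared order and the small group difference follow from that choice.

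Counts relative to Adipoq within the same library do not depend on the scaling between libraries. The ratio of Pparg to Adipoq counts had the narrowest range, 2.39-fold, from 0.0682 in control replicate 1 to 0.163 in exercised replicate 3. The ratio of Lpl to Adipoq was 4.67, 6.72 and 6.93 in the controls, by replicate number, and 3.64, 1.84 and 4.14 in the exercised libraries. All 3 controls lay above all 3 exercised libraries, in a comparison chosen after seeing the data. The share of all genes whose ratio to Adipoq separates the groups was not computed. The mean log2 ratio was 2.59 ± 0.32 in control and 1.60 ± 0.63 after exercise (± SD over 3 libraries each). The difference of -0.99 gave p = 0.1 by a two-sided exact permutation test, the smallest p that 3 against 3 allows, and 0.4 after adjustment over the 4 ratios. It lay between -1.22 and -0.63 when 1 library was left out. Its sign could not turn there, because the groups do not overlap.

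The other ratios overlapped between the groups. Scd to Adipoq ranged 6.77-fold, from 1.69 in exercised replicate 3 to 11.5 in exercised replicate 2, with 3.18, 2.59 and 9.70 in control replicates 1, 2 and 3. Cebpa to Adipoq ranged 10.3-fold and was highest in exercised replicate 3, at 1.73, against 0.168 to 0.503 in the other 5 libraries. The exact permutation p of the difference between groups was 1 for Pparg, 0.5 for Cebpa and 0.9 for Scd, and 1 for each after adjustment.

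**Figure D5:**
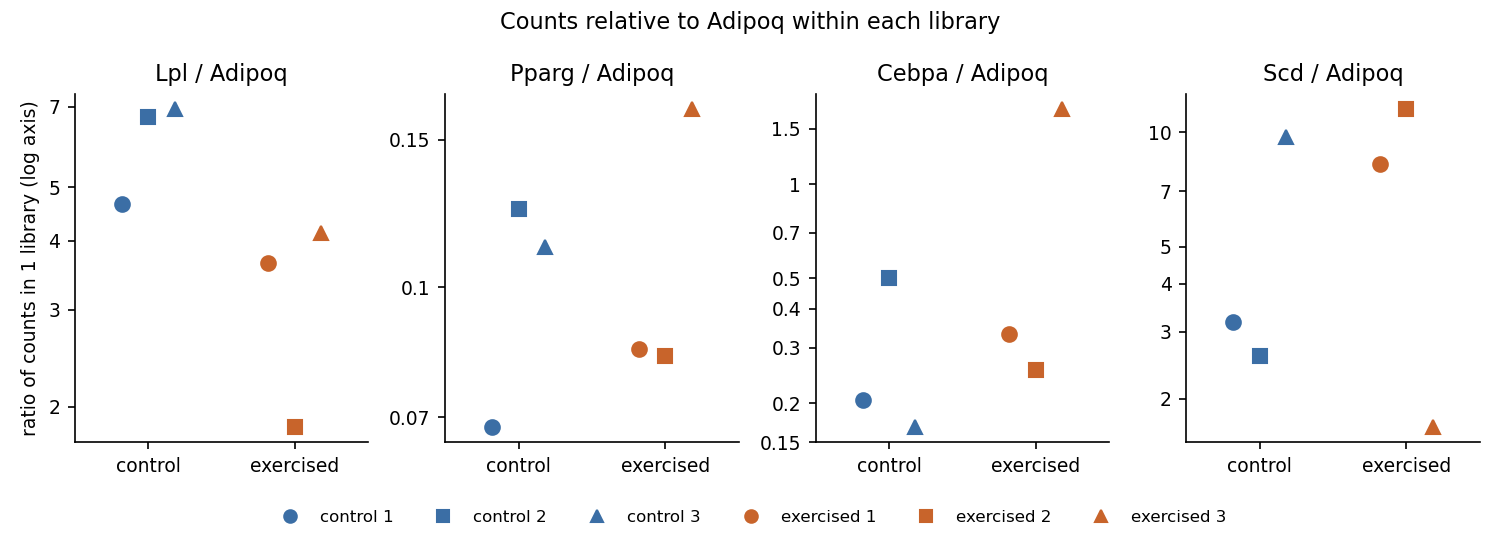
Ratio of the counts of Lpl, Pparg, Cebpa and Scd to the counts of Adipoq in each library, on log axes, with 1 point per library. The Lpl ratio is 4.67 to 6.93 in control and 1.84 to 4.14 in exercised bone, and the other 3 ratios overlap.

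The main axis of variation in these libraries, the first principal component (65.3% of the variance of log2 CPM), had no relation to the adipocyte genes that passed. Pearson's r with the score over the 6 libraries was -0.10 for Adipoq, -0.26 for Lpl, 0.16 for Pparg, 0.77 for Cebpa and -0.50 for Scd. Spearman's rho was -0.086, -0.26, -0.086, 0.43 and -0.43. The smallest exact permutation p was 0.0792, that of r for Cebpa (adjusted over the 5 genes 0.396). Without the libraries at both ends, control replicate 3 and exercised replicate 3, r over the remaining 4 was -0.98 for Adipoq, -0.55 for Lpl, -0.92 for Pparg, -0.88 for Cebpa and -0.70 for Scd. Adipoq, Lpl and Pparg were lowest in these end libraries, whose shares of counts in the 10 most abundant genes were 27.5% and 16.6%. The part of these library differences in the levels of the 5 genes was not tested.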

How the data were processed

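The authors deposited a table of Ensembl genes by library. Its headers name FPKM, but the deposited values are whole and their totals differ between libraries, so they were treated as counts. The submitters' processing notes list HISAT2 2.1.0, StringTie, fastp 0.19.5, edgeR and CASAVA, and the builds hg38 and mm10, which are not rat assemblies; the rat build, the counter and strandedness are not given. Columns were assigned to libraries by the library names in the labels.

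The members and lists were chosen with earlier results of these data known. edgeR 4.0.16 (R 4.3.3, TMM, filterByExpr with minimum count 10 and minimum total 15, quasi-likelihood test, Benjamini-Hochberg adjustment) was fitted to all 14495 genes passing the filter. All 5 genes passed. SE was the absolute log2 fold difference over the square root of F, and intervals used the fit's t quantiles. The alternatives tried were limma 3.58.1 (voom), DESeq2 1.42.0, other scalings, no filter, a replicate block and leaving out libraries. The fits were also run on simulated counts with known changes and set spreads between libraries. Those spreads were not matched to the 5 genes, and no result here rests on that run. Correlations used log2 CPM without a pseudocount, with exact permutations in Python 3.11.15 and SciPy 1.17.1. The printed SDs of the 5 genes had no pseudocount either. Principal components, likeness, the spread ranks and the median SD used a prior count of 2. The correlations with the first component, the spread ranks and the ratios to Adipoq were chosen after seeing the data.

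Beside the 5 genes, those named were the 2 closest to Adipoq. The 14 lists of other fat, stromal and marker genes (111 symbols) could not be read: 0 of the 47357 genes in the RefSeq table for GRCr8 carry an Ensembl identifier. RefSeq start windows were matched by symbol for 4 of the 5 genes. The labels do not say that a replicate number marks anything shared, so p-values reflect only how these 6 libraries vary. Libraries of the same group all differed beyond sampling noise (chi-square per degree of freedom at least 66.3).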

Additional observations from a re-analysis of the deposited data

How the results depend on the processing

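None of the 5 genes passed an adjusted p of 0.05 in any of the 14 alternative fits, whose adjusted p ran from 0.603 (Lpl without control replicate 2) to 1.00. Lpl stayed lower and Scd higher in exercised bone in all 14. With 1 library left out, the log2 fold difference ran from -0.70 to 0.99 for Adipoq, -1.62 to -0.26 for Lpl, -0.49 to 0.61 for Pparg, 0.062 to 1.18 for Cebpa and 0.29 to 1.92 for Scd. The direction turned for Adipoq and Pparg with limma voom (0.087 and 0.12), with the replicate block (0.054 and 0.14), without control replicate 1 (0.99 and 0.61) and without exercised replicate 3 (0.17 and 0.18). For Cebpa it turned without both replicates numbered 3 (-0.18). The cause was not tested. The number of genes past the threshold was 0 in 13 alternatives, those without 1 library included, 1 with DESeq2 and 247 at an unadjusted p under 0.05. The replicate block changed no call. The deviations of libraries with the same number correlated at 0.31, -0.41 and -0.49, and only replicate 1 had its best partner under its own number. With the block the SE fell for Adipoq (0.866 to 0.551), Lpl (0.760 to 0.542) and Pparg (0.598 to 0.407), genes lowest in replicate 3 of both groups. It rose for Cebpa (0.741 to 0.985) and for Scd. Whether the numbers pair the libraries was therefore not settled.

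The ratio of highest to lowest library with library size alone was 9.88 for Adipoq, 6.76 for Lpl, 17.0 for Cebpa and 24.1 for Scd, and with median-of-ratios factors it was 8.05 for Lpl. With 1 library left out it ran from 4.68 to 8.28 for Adipoq, 3.29 to 8.34 for Lpl, 3.09 to 5.05 for Pparg, 1.70 to 11.5 for Cebpa and 9.11 to 28.3 for Scd. The lowest values were those without control replicate 1 (Adipoq and Lpl), control replicate 3 (Pparg and Cebpa) and exercised replicate 3 (Scd). Group means of CPM moved by less than 1 SD under the 3 other scalings. That margin is wide, since the SD of Adipoq in controls was 268 CPM beside a mean of 265 CPM. The correlation of Adipoq with Pparg ran from 0.95 to 0.98 over its 3 alternatives and passed in each (adjusted exact permutation p 0.0139 to 0.0278), and that of Cebpa with Scd turned with median-of-ratios factors (-0.022). With 1 library left out, an alternative chosen after seeing the data, the log2 ratio to Adipoq, exercised minus control, ran from -1.22 to -0.63 for Lpl, -0.23 to 0.26 for Pparg, 0.17 to 1.55 for Cebpa and -0.20 to 1.18 for Scd. It turned for Pparg without control replicate 1 (-0.17) and exercised replicate 3 (-0.23), and for Scd without control replicate 2 (-0.032) and exercised replicate 2 (-0.20). For Lpl the sign could not turn, because the groups do not overlap in that ratio. With 3 libraries a group the spread between libraries, not depth, sets the width of the intervals, since counting error is small beside it.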
